A study of Mus musculus with 4 samples.

Results

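The genes described here encode chromatin modifiers and remodellers. They were taken by gene symbol (Kdm, Jmjd, Hdac, Sirt, Setd, Ash1l, Ash2l, Mll, Ezh, Prmt, Kat, Dnmt, Tet, Brd, Ing, Smarc, Chd and Arid families) among genes with a SNP listed in an exon of chromosomes 1 to 19. The rule found 56 of 8016 such genes and used no measured value. Of these, 55 had counted reads. Setd5, a SET domain protein, had 340 B and 382 D reads at 2 SNPs, but both positions were also listed under Lhfpl4 and were counted there.

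RNA from the gonadal fat pad of F1 mice was sequenced as 4 pooled libraries, and each read over a SNP was assigned to the C57BL/6J (B) or the DBA/2J (D) allele. All animals carried one B and one D genome, were on a chow diet and were 8 weeks old by the labels, whereas the study's methods give an older age. In the names of the crosses the mother's strain comes first: BxD had a B mother and DxB a D mother. Each cross was pooled by sex, with 3 animals in a pool except the DxB females, of which there were 2, and the 4 pools served as the replicates of the allele comparison. Counted exonic reads ranged from 3353668 to 4254813 per library, of which 0.395% to 0.495% fell in the chromatin genes. Reads at 148 X-linked SNPs went against 2 labels: the D share was 1.21% in the library labelled DxB female and 43.6% in the library labelled BxD male. A male carries only the X of its mother, whereas a female carries both. File names exchange cross and sex for these libraries, so results on parent of origin and sex are given under both identities, while the allele comparison does not use either. The library labelled DxB male, which the file names do not exchange, had 1107 B and 6342 D reads at the X-linked SNPs (85.1% D). A male with a D mother carries no B allele there, and the source of these B reads was not tested. Of 10 adipocyte markers listed, leptin and Cidec had counted SNPs, with 20299 to 37901 reads in sum per library. Epididymis markers (3 of 6 with counted SNPs) had 0, 1 and 1 reads in 3 libraries and 205 in the library labelled DxB male, and values without that library are given where a call changed. Fewer cells of a type and less RNA per cell cannot be told apart in such pools.

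Histone tails carry acetyl and methyl groups that enzymes add (writers) or remove (erasers). Bromodomain and PHD finger proteins bind these marks (readers), and ATP-driven complexes such as SWI/SNF and NuRD slide or evict nucleosomes. In adipose tissue such factors are known to act with PPARγ and other regulators in adipocyte differentiation and metabolism. In an F1 animal both alleles of a gene share a nucleus, so the trans-acting environment is common to them.

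The results turn on single SNPs, so the mm9 reference around those in coding exons is shown first, on the plus strand. Capitals mark the SNP base, which is the B base, and substitutions are given as B base, position from the 5′ end of the printed run, D base. The first group holds SNPs where D reads were absent or nearly so.
Hdac2, chr10:36708984-36709012, T15G: aactgatatggctgTcaattgggctggag
Brd3, chr2:27317104-27317132, T15G: ggcggtgcagcgggTggggggactggaac
Ash2l, chr8:26944250-26944279, T6C and G25A: agtcaTttttccaggtctctgtctGgttgt
Sirt1, chr10:62801665-62801694, C6G and C25G: cgccgCggaaggggagccggcggcCtgaag
Smarcc1, chr9:110106799-110106827, G15A: agatagtgacgtcaGtgaggatgtcaagc
Chd1, chr17:15907136-15907164, T15G: tctcagattggcagTtggaccaccgagct
Mll2, chr15:98677255-98677283, G15C: agctgctgggtgtgGaacagccactcctc
Jmjd1c, chr10:66687949-66687977, C15A: tttacactgagaaaCaaaataataacctt
Another SNP of each of the last 2 genes had both alleles read, and Smarce1 had a pair of SNPs read mostly from D.
Mll2, chr15:98683070-98683098, G15A: gcctcagccgacagGggacgtggggtcag
Jmjd1c, chr10:66700908-66700936, T15C: taagcatctgatgcTgactcagattatcc
Smarce1, chr11:99074530-99074559, C2T and C29T: cCtgctctgctgcctccttctccctctcCt
In GENCODE M1, which uses this build, all of these SNPs lie in a coding exon of the named gene. Hdac2, Smarcc1, Chd1 and Jmjd1c are on the plus strand and the others on the minus strand.

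To ask whether the alleles differed, B and D reads of the exonic SNPs were summed per gene and compared over the 4 pools with edgeR's quasi-likelihood test, with Benjamini-Hochberg adjustment over all genes and a threshold of 0.05. The log2 ratio is that of D to B, so a negative value means more B reads. Of the 55 chromatin genes, 17 passed (30.9%), against 17.7% of the 7990 genes tested. The B allele was higher in 13 and the D allele in 4, where over all genes 12.9% passed with B higher and 4.84% with D higher. The median log2 ratio of D to B was -0.09 over the chromatin genes and -0.02 over all genes. By role, calls were made in 2 of 6 demethylases, 3 of 9 deacetylases, 3 of 14 methyltransferases and partners, 4 of 7 readers and 5 of 16 remodellers, and in neither of the 2 acetyltransferases nor in Dnmt3b, the only DNA methylation gene. Some SNPs had under 1% of their reads from 1 allele, nearly always from D (single-allele SNPs, or B-only where D was the missing allele). Without single-allele SNPs, 6 of 49 chromatin genes passed (12.2%), against 9.09% of 6823 genes. B was higher in 3 (5.54% of all genes) and D in 3 (3.55%). With the pool as a block, 20 of 55 passed against 27.2% of all genes, 13 with B higher (16.2%) and 7 with D higher (11.0%). With 1 library size per pool in place of 1 per allele, 13 passed with B higher (14.7% of all genes) and 1 with D higher (2.95%). Without SNPs whose surrounding 29 bases matched mm9 at another place, 13 passed with B higher (12.3%) and 4 with D higher (4.64%). The calls thus fall into 3 patterns: genes with almost no D read at any SNP where the strains differ, genes with B-only SNPs beside balanced ones, and genes with more D reads.

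**Figure D1:**
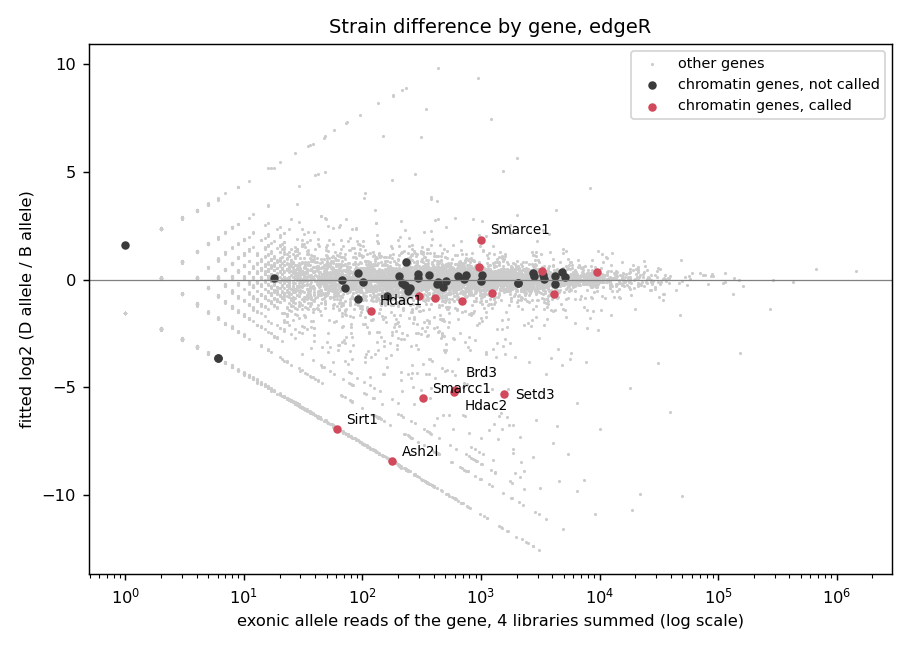
Fitted log2 ratio of D to B (y axis) against the exonic allele reads of each gene summed over the 4 libraries (x axis, log scale), with 1 point per gene. Of 54 chromatin genes shown, the 16 called in the strain test are red and the 38 others black, and 6 called genes lie below -5 while Smarce1 is the highest at 1.85.

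Among the readers, Brd2 and Brd3, which bind acetylated histones through bromodomains, were called with B higher. Brd3 was read at 1 SNP, a synonymous change at chr2:27317118. It had 199, 130, 162 and 96 B reads and 4, 5, 2 and 4 D reads in the libraries labelled BxD female, DxB female, male BxD and male DxB, an order kept from here on. The D share was 2.72% ± 1.34 (SD, n = 4 pools), B exceeded D in every pool, and edgeR's adjusted p was 6.1e-08. Both alleles were above the 1% limit here, so leaving out single-allele SNPs did not change the counts of Brd3. Its call in that setting (edgeR adjusted p = 9.5e-07) is therefore no separate support.

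The SNPs of Brd2 disagreed with each other. Its B reads were 689, 712, 686 and 538 and its D reads 404, 426, 355 and 332, so the allele counts did not overlap, and the D share was 36.7% ± 1.78 (SD, n = 4 pools). The fitted log2 ratio was -0.66 ± 0.11 (SE, edgeR adjusted p = 0.001). At 2 of 8 SNPs, both in an exon annotated as 5′ UTR, D reads were all but absent, with 863 B and 1 D at chr17:34255622 and 143 B and 0 D at chr17:34255813. The next SNP of the same exon, chr17:34255835, had 208 B and 139 D reads. D shares above 60% were seen at 2 SNPs, with 182 B and 318 D reads at chr17:34254128 and 133 B and 200 D at chr17:34256787. Over the 6 SNPs with both alleles the D share was 48.4%, and the log2 ratio without single-allele SNPs was -0.01 (edgeR adjusted p = 0.99).

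Ing4 and Ing5 carry a PHD finger that binds methylated histone H3 and belong to acetyltransferase complexes. Ing5 had 69, 54, 40 and 33 B reads and 33, 24, 27 and 21 D reads, so the lowest B count equalled the highest D count and B exceeded D in every pool. The log2 ratio was -0.75 ± 0.21 (SE, edgeR adjusted p = 0.028). Its 2 SNPs lie in the same 3′ UTR exon: chr1:95714912 had 103 B and 1 D reads, and chr1:95716193 had 93 B and 104 D. Without single-allele SNPs, so without the first, the log2 ratio turned to 0.25 (edgeR adjusted p = 0.61). The call was also lost when any 1 library was left out (edgeR adjusted p = 0.051 to 0.15). Ing4, with 1130 B and 933 D reads, was higher from B in all 4 pools, with a log2 ratio of -0.15 ± 0.12 (edgeR adjusted p = 0.48). The uncalled readers Brd7, Brd8 and Ing4 had D shares of 41.4% to 51.8%.

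**Figure D2:**
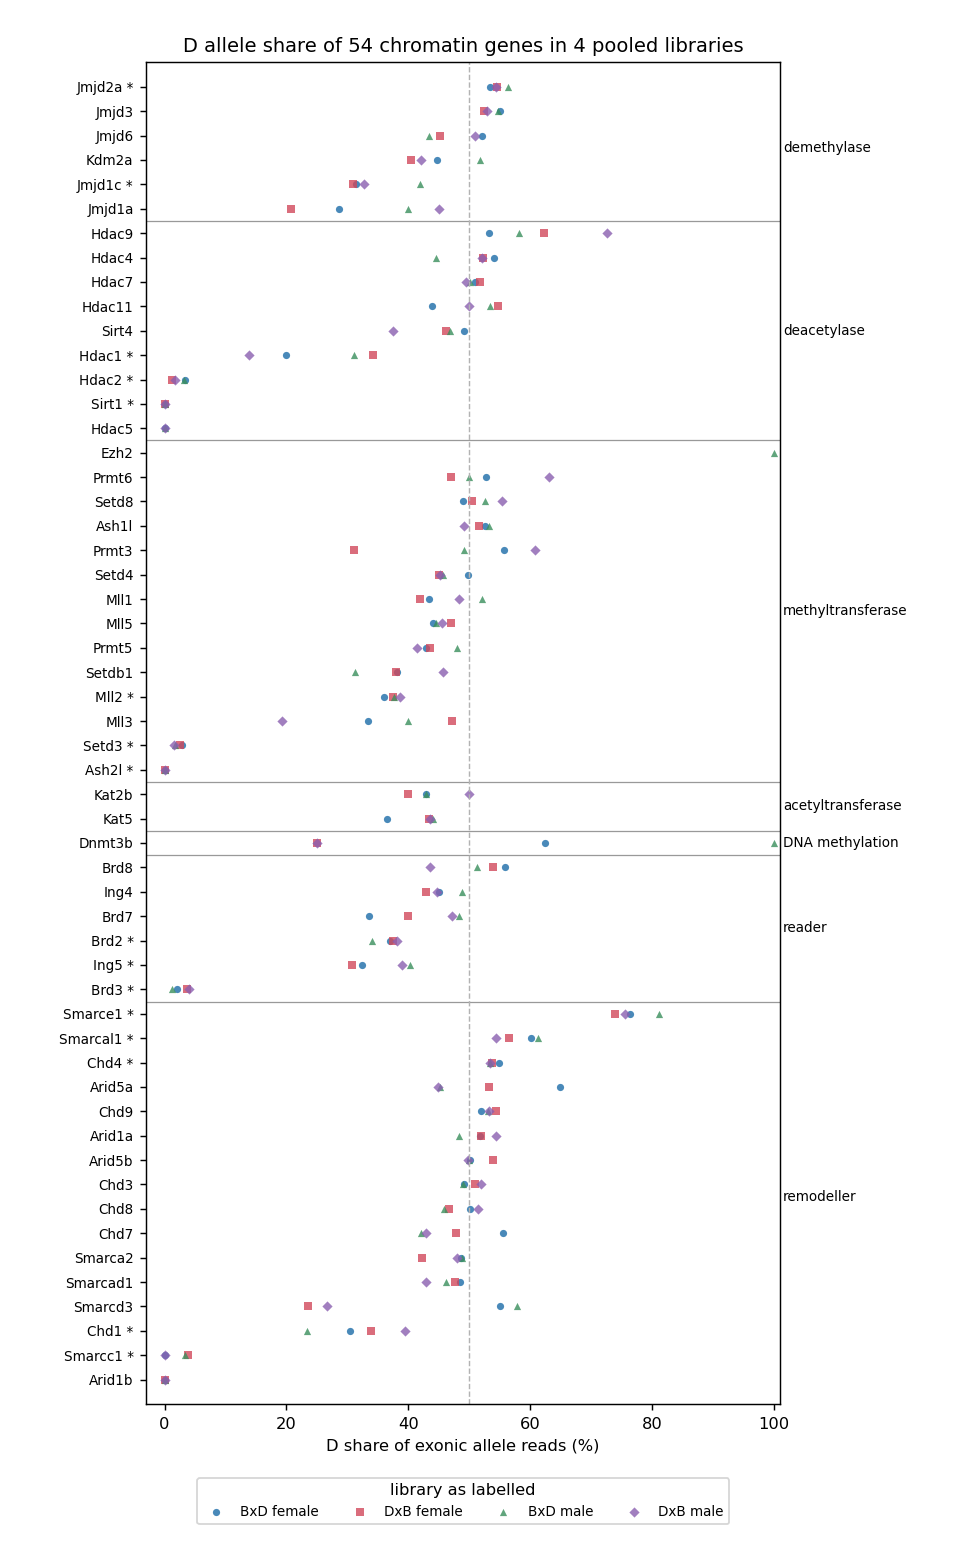
D share of exonic allele reads (x axis, percent) for 54 chromatin genes (y axis, grouped by role), with 1 symbol per library and an asterisk at the 16 called genes shown. Most genes lie near the dashed line at 50%, while Brd3, Hdac2, Setd3, Smarcc1, Ash2l and Sirt1 lie below 5% in every library and Smarce1 above 70%. Genes with few reads, such as Ezh2 and Dnmt3b, scatter widely.

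Among the erasers of acetylation, class I deacetylases and the NAD-dependent sirtuin Sirt1 were called. Hdac2, a catalytic subunit of the NuRD, Sin3 and CoREST complexes, had 143, 159, 155 and 117 B reads and 5, 2, 5 and 2 D reads at 1 nonsynonymous SNP, chr10:36708998. The D share was 2.36% ± 1.05 (SD, n = 4 pools), the log2 ratio -5.19 ± 0.25 and edgeR's adjusted p 2.7e-08. Both alleles were above the 1% limit, so leaving out single-allele SNPs did not change the counts of Hdac2. Its call in that setting is no separate support.

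Sirt1 had 16, 6, 17 and 22 B reads and no D read in any library. At 61 reads, 0 allows a D share of up to 4.92%. If the D animals carry the listed D bases, B was at least 20.3-fold higher (edgeR adjusted p = 0.0015). The 2 Sirt1 SNPs lie close enough to share reads, and these limits take the reads as separate. Both of its SNPs lie in an exon that the files mark NOOKAY, a flag whose meaning is not given in the sources used here. Hdac5 had 6 B reads and no D read, too few for a call.

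Hdac1, the close relative of Hdac2 in the same complexes, was thinly covered. Its B reads were 20, 23, 20 and 25 and its D reads 5, 12, 9 and 4, and the allele counts did not overlap. The log2 ratio was -1.44 ± 0.37 (SE, edgeR adjusted p = 0.019). Its 11 SNPs ranged from 0% D, as at chr4:129200257 (17 B, 0 D), to 71.4% D at chr4:129195352 (2 B, 5 D). At 6 of the 11 SNPs the 29 bases around the SNP, with the B or the D base, matched mm9 at another place, against 3.12% of all counted SNPs, and the part of this in the result was not tested. Without such SNPs over all genes the log2 ratio was -1.54 (edgeR adjusted p = 0.047), and without single-allele SNPs it was -0.62 (edgeR adjusted p = 0.51). Without the BxD male or the DxB male library the call was lost (edgeR adjusted p = 0.052 and 0.13).

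The class IIa enzyme Hdac7 was the most read deacetylase, with 2073 B and 2131 D reads. Its D share was 50.6% ± 1.01 (SD, n = 4 pools) and edgeR's adjusted p was 0.37. Hdac9, which is known to restrain adipocyte differentiation, had 91 B and 143 D reads (log2 0.81 ± 0.36, edgeR adjusted p = 0.18). With the pool as a block, Hdac9 passed (edgeR adjusted p = 0.046).

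Among the methyltransferases and their partners, Setd3 (an actin histidine methyltransferase with a SET domain) had the lowest p of all chromatin genes. Its B reads were 363, 494, 403 and 267 and its D reads 11, 13, 7 and 4, and edgeR's adjusted p was 2.4e-08. All 35 D reads came from SNPs for which the files list the same base in both strains and give equal counts to both alleles. At the 7 SNPs with different bases, which span the 3′ UTR, coding and 5′ UTR annotations, there were 1492 B reads and 0 D reads. This allows a D share of up to 0.201% and makes B at least 497-fold higher, if the D animals carry the listed D bases. Intronic SNPs of Setd3 differed from this: B had 149, 107, 93 and 72 reads and D 102, 78, 68 and 62 over 62 SNPs, a D share of 42.4% (95% Wilson interval 38.9% to 46.0%). The intronic log2 ratio was -0.31 ± 0.19 (edgeR adjusted p = 0.38), and the exonic and intronic ratios were not tested against each other. The 29 bases around 2 of the 7 SNPs matched mm9 elsewhere, as did those around all 3 same-base SNPs. Some of the 7 SNPs lie close enough to share reads, which the limit on the D share does not allow for.

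Ash2l, a core subunit of the MLL methyltransferase complexes, had 58, 47, 36 and 38 B reads and no D read. At 179 reads, 0 allows a D share of up to 1.68%. If the D animals carry the listed D bases, B was at least 59.7-fold higher (edgeR adjusted p = 7.5e-06). Its 2 SNPs lie 19 bases apart in 1 exon and can share reads. For chr8:26944255, the 29 bases with the D base occurred at 1 place in mm9.

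Mll2 (Kmt2d), an H3K4 methyltransferase that acts at enhancers, had 253, 203, 182 and 137 B reads and 142, 122, 110 and 86 D reads. The lowest B count was under the highest D count, but B exceeded D in every pool, and the log2 ratio was -0.62 ± 0.12 (edgeR adjusted p = 0.004). The nonsynonymous SNP chr15:98677269 had 261 B reads and no D read. The other 2 SNPs had 375 B and 333 D and 139 B and 127 D reads, and without single-allele SNPs the log2 ratio was -0.07 (edgeR adjusted p = 0.88).

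Of the other methyltransferases, Prmt5, which makes symmetric dimethylarginine, was the most read. It had 671, 590, 662 and 425 B reads and 505, 456, 610 and 301 D reads. B was higher in every pool, yet the log2 ratio of -0.20 ± 0.15 did not pass (edgeR adjusted p = 0.46). Mll5 (Kmt2e), whose B count was also higher in every pool, had 1126 B and 931 D reads with a log2 ratio of -0.14 ± 0.12 (edgeR adjusted p = 0.52). Ezh2, the catalytic subunit of PRC2, had 1 read in all.

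Among the demethylases, the 2 calls went in opposite directions. Jmjd2a (Kdm4a), which removes methyl groups from histone H3 lysines, had 464, 365, 346 and 296 B reads and 531, 439, 448 and 354 D reads. The ranges overlapped between pools, but D exceeded B within each, and the D share was 54.7% ± 1.27 (SD, n = 4 pools). The log2 ratio was 0.40 ± 0.10 (edgeR adjusted p = 0.015), and 6 of its 7 SNPs had D shares between 51.0% and 61.1%. Its intronic D share was 56.6% (119 B and 155 D reads, edgeR adjusted p = 0.32). Without the BxD male, the DxB female or the DxB male library the exonic call was lost (edgeR adjusted p = 0.075, 0.10 and 0.079). With 1 library size per pool the log2 ratio was 0.27 (edgeR adjusted p = 0.19).

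Jmjd1c had 96, 85, 47 and 43 B reads and 44, 38, 34 and 21 D reads. The ranges overlapped, B exceeded D within each pool, and the log2 ratio was -0.85 ± 0.24 (edgeR adjusted p = 0.031). Of its 2 nonsynonymous SNPs, chr10:66687963 had 147 B and 0 D reads and chr10:66700922 had 124 B and 137 D. Without the first, the log2 ratio turned to 0.24 (edgeR adjusted p = 0.74). The call was lost without the BxD female, the DxB female or the DxB male library (edgeR adjusted p = 0.11, 0.13 and 0.076). Jmjd1a (Kdm3a), an H3K9 demethylase known for its role in thermogenic gene expression, showed the same form on fewer reads, with 37 B and 0 D reads at 1 SNP and 25 B and 30 D at the other, and did not pass (edgeR adjusted p = 0.12).

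Jmjd3 (Kdm6b), the H3K27 demethylase induced in inflammation, had 579, 599, 610 and 431 B reads and 711, 658, 735 and 484 D reads over 14 SNPs. D exceeded B in every pool, and the log2 ratio was 0.35 ± 0.11 (edgeR adjusted p = 0.056). With the pool as a block, it passed (edgeR adjusted p = 0.0038).

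**Figure D3:**
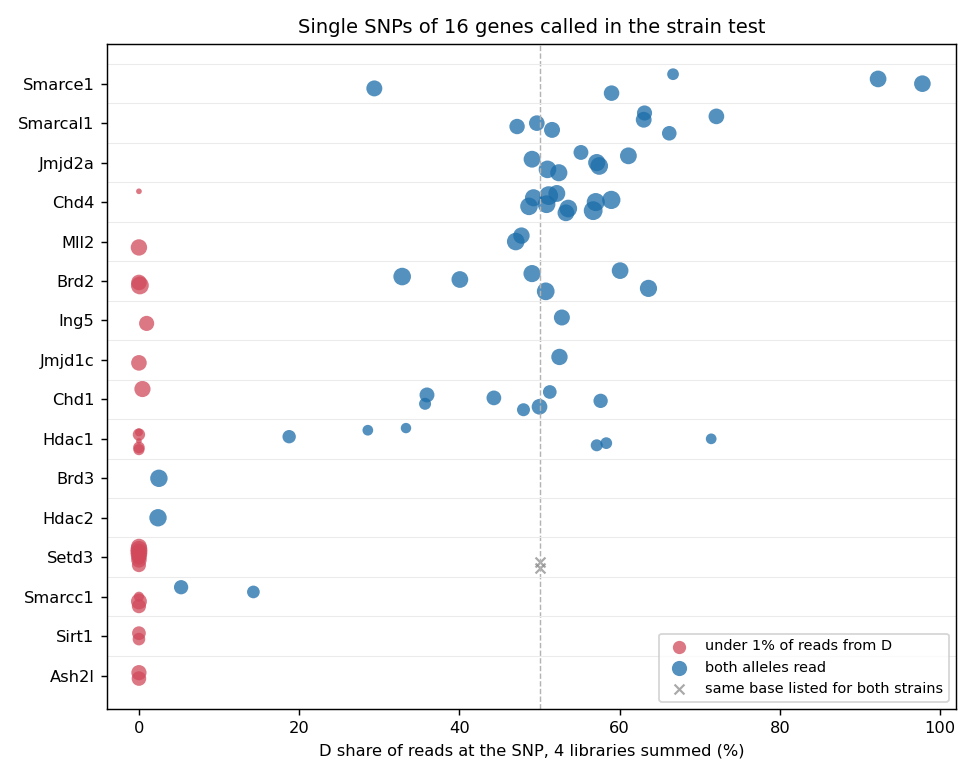
D share at each SNP (x axis, percent, 4 libraries summed) of 16 called genes (y axis), with symbol size rising with the reads at the SNP. Red symbols mark SNPs with under 1% of reads from D, blue those with both alleles read and grey crosses the Setd3 SNPs for which both strains list the same base. Brd2, Mll2, Ing5, Jmjd1c and Chd1 have red and balanced blue symbols in 1 gene.

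The remodellers held 3 of the 4 genes called with D higher. Smarce1 (BAF57), a DNA-binding subunit of SWI/SNF complexes, had 76, 64, 48 and 43 B reads and 246, 182, 206 and 133 D reads. The allele counts did not overlap, the D share was 76.8% ± 3.06 (SD, n = 4 pools) and the log2 ratio was 1.85 ± 0.15 (edgeR adjusted p = 2.7e-06). The SNPs of the gene went in opposite directions. In the coding exon, chr11:99074531 had 7 B and 310 D reads and chr11:99074558 had 26 B and 310 D. These 2 SNPs lie close enough to share reads. In the 3′ UTR, chr11:99071186 had 137 B and 57 D reads, with D at 24.2% to 33.9% in the 4 libraries, and chr11:99070593 had 57 B and 82 D. The intronic D share was 52.3% (145 B and 159 D reads, edgeR adjusted p = 0.59). For chr11:99074531 the 29 bases with the B base matched mm9 at 2 places and those with the D base at none. Without SNPs of this kind the log2 ratio of Smarce1 was 1.14 ± 0.17 (edgeR adjusted p = 0.00038), and the part of such matches in the rest was not tested.

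Smarcal1, an annealing helicase that acts at stalled replication forks, had 118, 117, 85 and 83 B reads and 178, 152, 135 and 99 D reads. D exceeded B in each pool and the log2 ratio was 0.60 ± 0.14 (edgeR adjusted p = 0.0086). Its 7 SNPs all lie in 1 exon, and D shares ran from 47.2% at chr1:72632563 to 72.1% at chr1:72632690. Its intronic SNPs had 256 B and 230 D reads (47.3% D, edgeR adjusted p = 0.91). With 1 library size per pool, the log2 ratio was 0.48 (edgeR adjusted p = 0.062), and without the BxD female library it was 0.56 (edgeR adjusted p = 0.054).

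Chd4 (Mi-2β), the ATPase of NuRD, was the most read chromatin gene, with 1381, 1109, 1059 and 876 B reads and 1679, 1288, 1211 and 1003 D reads. The ranges overlapped between pools, D exceeded B within each, and the D share was 53.8% ± 0.71 (SD, n = 4 pools), with a log2 ratio of 0.35 ± 0.11 (edgeR adjusted p = 0.039). At its 10 SNPs with over 1 read, D shares ran from 48.7% to 59.0%. Without single-allele SNPs of all genes edgeR's adjusted p was 0.089, although Chd4 itself lost only 1 read, and with 1 library size per pool it was 0.32. With any 1 library left out it was 0.070 to 0.17, so the call was lost each time. Chd9 was close to Chd4 in direction, with 388, 307, 305 and 280 B reads and 418, 367, 345 and 318 D reads (log2 0.31 ± 0.10, edgeR adjusted p = 0.065), and it passed with the pool as a block (edgeR adjusted p = 0.0081).

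**Figure D4:**
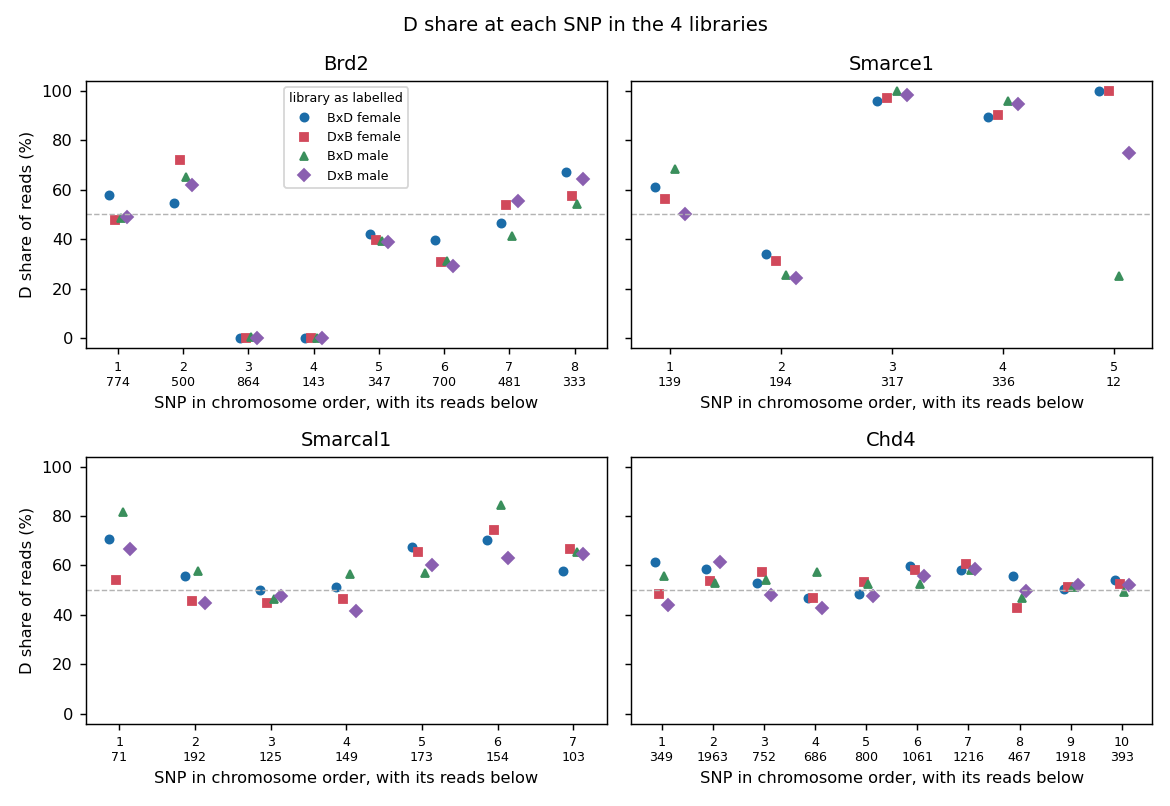
D share (y axis, percent) at each SNP with at least 10 reads of Brd2, Smarce1, Smarcal1 and Chd4, in chromosome order (x axis, with the reads at the SNP below), with 1 symbol per library. In Brd2 the SNPs with 864 and 143 reads are at or near 0% in all 4 libraries, and in Smarce1 the SNP with 194 reads lies below 50% and those with 317 and 336 reads above 85% in all 4.

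Both remaining remodeller calls had B higher. Smarcc1 (BAF155), a scaffold subunit of SWI/SNF, had 95, 75, 85 and 63 B reads and 0, 3, 3 and 0 D reads over 5 SNPs in 4 exons. The log2 ratio was -5.49 ± 0.49 (edgeR adjusted p = 6.5e-06). At its 2 SNPs in the 3′ UTR, D had 3 of 21 and 3 of 57 reads, and the call was kept on these alone (log2 -3.41, edgeR adjusted p = 0.011). The 6 D reads came from the DxB female and BxD male libraries, 3 from each.

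Chd1, which binds methylated H3K4, had 151, 109, 124 and 89 B reads and 66, 56, 38 and 58 D reads, with no overlap between alleles. The log2 ratio was -0.97 ± 0.19 (edgeR adjusted p = 0.0032). The nonsynonymous SNP chr17:15907150 in its last listed exon had 227 B reads and 1 D read, whereas the other 7 SNPs had 246 B and 217 D reads in sum. Without single-allele SNPs the log2 ratio was -0.08 (edgeR adjusted p = 0.93).

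Among the well-covered remodellers that were not called, 4 had D shares of 48.4% to 51.5%. Chd3, the other NuRD ATPase, had 2564 B and 2563 D reads, and these near-equal counts corresponded to a fitted log2 ratio of 0.13 ± 0.17, because the scaling sets 0 by the average gene, which had more B reads (edgeR adjusted p = 0.68). Chd8, which antagonizes β-catenin, had 1737 B and 1632 D reads (log2 0.04 ± 0.10, edgeR adjusted p = 0.85). Arid1a, a DNA-binding BAF subunit, had 1631 B and 1734 D reads (log2 0.22 ± 0.11, edgeR adjusted p = 0.23). Arid5b, a cofactor of the demethylase Phf2 with a known role in fat accumulation, had 1383 B and 1435 D reads (log2 0.18 ± 0.17, edgeR adjusted p = 0.54).

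The B-only SNPs shared features that the gene list did not use. Of 262 chromatin gene SNPs with different bases and at least 20 reads, 26 in 15 genes had under 1% of reads from D (9.92%, 95% Wilson interval 6.86% to 14.1%), and 0 had under 1% from B. Over all genes these shares were 4.44% of 29736 SNPs for D and 0.232% for B. SNPs of 1 gene are not independent, and 7 of the 26 were in Setd3. In the chromatin genes 14 of 59 nonsynonymous SNPs (23.7%) and 5 of 18 SNPs annotated to the 5′ UTR (27.8%) were B-only, against 2 of 134 synonymous SNPs (1.49%). Over all genes the same classes stood at 9.13%, 14.2% and 2.20%. By base, SNPs with A in B and C in D (or T and G on the other strand) were B-only at 25.0% of 16 SNPs in the chromatin genes and 11.5% over all genes, while C in B and T in D (or G and A) stood at 2.30% of 87 SNPs and 3.21%. Where both alleles were read, the median D share per SNP was 51.1% in the chromatin genes and 48.5% over all genes. In Brd2 and Ing5, another SNP of the same exon as a B-only SNP had reads from both alleles. In Setd3, Ash2l and Sirt1 no exonic SNP with different bases had reads from both. There, positions at which the D animals carry the B base and a loss of D transcripts cannot be told apart from the exonic counts. Brd3 and Hdac2 each rest on 1 SNP with T in B and G in D. D had 15 of 602 reads in Brd3 and 14 of 588 in Hdac2. Whether these few D reads come from D alleles or from base errors was not tested.

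Intronic SNPs gave a readout on reads that the exonic sums did not use. Of 47 chromatin genes with intronic reads, 3 passed (6.38%), all with B higher, against 11.3% of 9561 genes (7.12% with B higher and 4.19% with D higher). Hdac1 was the single gene called in both readouts: its intronic B reads were 138, 114, 132 and 80 and its D reads 95, 66, 60 and 50 over 63 SNPs. The intronic log2 ratio was -0.67 ± 0.19 (edgeR adjusted p = 0.0068), and B exceeded D in every pool. Without the BxD male library the call was lost (edgeR adjusted p = 0.13).

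Setd4, a SET domain protein, had 26, 19, 16 and 14 intronic B reads and 8, 9, 7 and 5 D reads, without overlap (log2 -1.23 ± 0.40, edgeR adjusted p = 0.021). The call was lost without the BxD female, BxD male or DxB male library (edgeR adjusted p = 0.14, 0.057 and 0.063) and without single-allele SNPs (edgeR adjusted p = 0.084). Its exonic reads were near balance, with 269 B and 237 D (edgeR adjusted p = 0.91). Smarca2 (BRM), an ATPase of SWI/SNF, had 16 intronic B reads and 0 D reads at 2 SNPs, 8 of them in the BxD female library, but 536 B and 469 D reads at its exonic SNP (edgeR adjusted p = 0.90). At 16 reads, 0 allows an intronic D share of up to 18.8%. The intronic call of Smarca2 was lost without the BxD female library and with the pool as a block (edgeR adjusted p = 0.11 and 0.096). Brd3, Hdac2, Sirt1 and Smarcc1 had no counted intronic read. Among the genes with B-only exonic SNPs, Brd2, Chd1, Ing5 and Mll2 had intronic D shares of 44.8%, 51.5%, 41.7% and 48.8%, none past the threshold. Jmjd1c had 10 B reads and 1 D read in introns (9.09% D, edgeR adjusted p = 0.17) and Ash2l had 3 B and 0 D (edgeR adjusted p = 0.36), so both were thinly read there. Chd9 had more B than D reads in introns (961 and 655 over 255 SNPs, 40.5% D, edgeR adjusted p = 0.091), against 53.1% D in exons, and the difference was not tested. With the pool as a block Chd9 passed in introns too, with B higher (log2 -0.44 ± 0.10, edgeR adjusted p = 0.035), opposite in direction to its exonic reads.

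**Figure D5:**
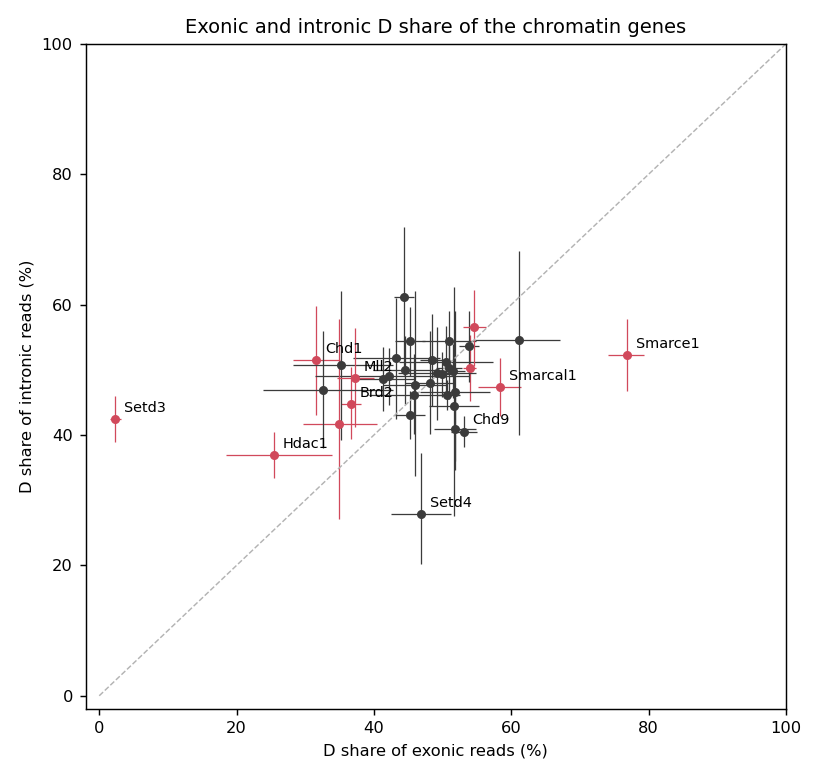
D share of exonic (x axis) and intronic reads (y axis), both in percent, for the 37 chromatin genes with at least 20 reads in each. Bars are 95% Wilson intervals for counting error, red points are the 10 genes called on exonic SNPs, and the dashed line marks equal shares. Setd3 lies far left at a 42.4% intronic share, Smarce1 far right and Setd4 lowest.

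Parent of origin and sex were compared by the same test. Under the labels no chromatin gene passed the test of maternal against paternal allele: edgeR called 0 of 55 (and 0.0% of 7990 genes), with 1 at an unadjusted p under 0.05, and DESeq2 called 0. That gene was Smarcd3, a BAF subunit, named after its value was seen, with 71 reads in all (log2 ratio of maternal to paternal -0.91, edgeR adjusted p = 0.9999). Under the file names its log2 ratio was 0.07 (edgeR unadjusted p = 0.89). If the file names are right, the labels reverse the mother's strain in 2 libraries. A parental difference would then cancel, so the test under the labels could not show it. Under the identities in the file names edgeR again called 0 of 55, against 0.0501% of all genes (0.025% in either direction). The strain ratio differed by sex in 0 of 55 chromatin genes under the labels (0.1% of all genes, 0.0626% with a negative and 0.0375% with a positive difference), with 0 at an unadjusted p under 0.05, and DESeq2 called 0. Under the file names edgeR called 0 of 55 as well, with 1, again Smarcd3 (log2 difference -1.91), at an unadjusted p under 0.05. Each sex and each cross had 2 pools, and a p that misses the threshold does not show that the alleles were alike.

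Other chromatin genes outside the symbol rule, such as Polycomb, NuRD, cohesin and acetyltransferase subunits, were read for comparison from a list of 108. Of the 57 with counted reads, 12 passed (21.1%), all with B higher, against 17.7% of all genes (12.9% with B higher). Without single-allele SNPs 6 of 49 passed, again all with B higher, against 9.09% of all genes (5.54% with B higher). With the pool as a block 14 of the 57 passed, against 27.2% of all genes. B was higher in 12 (16.2% of all genes). D was higher in 2 (11.0%), Phc2 and Rad21 (edgeR adjusted p = 0.014 and 0.018). The 12 called in the main test included the NuRD subunit Mbd3 with 1008 B and 85 D reads (log2 -3.42 ± 0.24, edgeR adjusted p = 9.2e-07) and the Polycomb E3 ligase subunit Ring1 with 4081 B and 1136 D reads. Mbd3 passed without single-allele SNPs (edgeR adjusted p = 1.0e-05) and Ring1 did not (edgeR adjusted p = 0.75).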

How the data were processed

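The authors deposited, per library, a table of SNPs with counts of reads carrying the B and the D base. Reads were aligned to mm9 with known D variants masked, mates were treated as single reads, and only uniquely mapped reads were kept, per the study's methods. The submitters' processing notes name CASAVA and TopHat 1. PCR duplicate removal is not described, so Wilson intervals (95%) and the floor of 3 counts cover counting error only. The base listed for B was the mm9 base at 44209 of 44210 counted SNPs.

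One row per position was kept (first gene by name), then, within an exon or intron, SNPs over 18 bp apart. Counts were summed per gene. The main test was edgeR 4.0.16 (glmQLFit, glmQLFTest, TMM) in R 4.3.3 on 8 allele libraries, with strain as the only term and Benjamini-Hochberg adjustment over all genes. It was tested on simulated counts. DESeq2 1.42.0 was an alternative. The B and D libraries of a pool come from the same animals, and their deviations correlated at 0.0788 to 0.663 over 4614 genes, so values with the pool as a block are given where they change a call. Pools of different animals were replicates for strain. Without the block, p-values and SEs measure the spread between the libraries of 1 allele, which includes expression differences between pools. They do not measure the spread of the allele ratio within pools.

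The members, gene lists and tests were chosen with earlier results of these data known. Genes named by rule are those called in any test (also where the call was lost without single-allele SNPs) and the 10 most read that were not called. One called gene is not reported here and is part of the counts only. Others were named after their values were seen. Exact matches of the 29 bases around each SNP were counted in mm9, both strands, after the values were seen.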

Additional observations from a re-analysis of the deposited data

Results flagged for a closer look

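The D shares of the 4 libraries were compared within each of 47 chromatin genes with at least 10 reads per library, and 4 had 1 library far from the other 3. Chance flags about 1 in 20 such groups. The D share of Arid5b was 53.9% in the library labelled DxB female and 49.8% to 50.1% in the others. The D share of Smarca2 was 42.3% in that library and 47.9% to 48.8% in the others. In the library labelled BxD female, Kat5 (the acetyltransferase Tip60) was at 36.5% against 43.4% to 44.1%, and Setd4 at 49.7% against 45.0% to 45.7%. None of these genes was called on exonic SNPs. Causes were not tested.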

How the results depend on the processing

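Of the 17 exonic calls, the number was 14 to 20 under the changes of tool, scaling, read minimum, SNP spacing and block. Over all genes 17.5% to 27.2% passed under these changes. The number was 17 without SNPs matching mm9 elsewhere (16.9% of all genes). It was 6 without SNPs of under 1% from 1 allele (12.2%, against 9.09% of all genes). It was 6 when same-base SNPs were left out too (12.5% against 9.47%). With the under 1% filter and the replicate block (pool) it was 9 (18.4% against 22.3%). B was higher in 3, 3 and 3 of these. Without SNPs of under 1%, Ash2l and Sirt1 had no SNP left. Without these SNPs, Setd3 rested on same-base SNPs and turned to 0.0852 (0.0855 with the block), Ing5 to 0.25 (0.25 with same-base SNPs out, 0.25 with the block) and Jmjd1c to 0.24 (0.24 and 0.26), none past the threshold. D was higher in 4 genes, in 7 with the replicate block (pool) and in 1 with 1 library size per pool, where 13 had B higher and the median log2 of all genes went from -0.02 to -0.15. Without 1 library, 12 to 13 exonic calls were made (21.8% to 24.1%, against 13.3% to 15% of all genes). Of these calls, 10 to 11 had B higher and 2 had D higher. Hdac1, Ing5, Jmjd1c, Jmjd2a, Smarcal1 and Chd4 each lost their call at least once. The 3 intronic calls fell to 1 to 3 without 1 library (8.44% to 9.51% of all genes). They fell to 1, Hdac1, without SNPs of under 1% (5.81% of all genes). With the block the number was 3 again (9.2% of all genes), without Smarca2 (edgeR adjusted p = 0.096) and with Chd9 (edgeR adjusted p = 0.035). Parent of origin and sex stayed at 0 throughout. Causes were not tested. Hdac5 with 6 exonic reads and Ezh2 with 1 were too thinly read for a call.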
